A study of Rattus norvegicus with 9 samples.

Results

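The genes of glutathione synthesis, recycling and use described here are Gclc, Gclm, Gss, Gsr, Gpx1, Gpx3, Gpx4, Gstm1, Gstm4 and Gstp1, 10 of 14217 genes with a single symbol on an array of rat gastrocnemius muscle. All probe sets whose single gene symbol in the platform annotation was one of these names were taken, which gave 12 probe sets of the 31042 on the array that are not controls. Gclc and Gpx4 had 2 each and the other genes 1 each. Male Wistar rats of 250 g were infused from osmotic pumps for 7 days, and each of 3 groups held 3 animals with 1 array per animal. The first group received dexamethasone, a synthetic glucocorticoid, at 0.7 mg/kg/day together with testosterone in propylene glycol. The second received the same dose of dexamethasone alone, in the same solvent, and the third that vehicle alone. The testosterone dose is 28 mg/kg/day in the sample labels and 20 mg/kg/day in the series design, and which holds was not settled.

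Glutathione is a tripeptide of glutamate, cysteine and glycine that cells keep at high concentration as their main small thiol. Glutamate-cysteine ligase, made of a catalytic and a modifier subunit, carries out the rate-limiting step of its synthesis, and glutathione synthetase adds the glycine. Glutathione peroxidases spend it to reduce peroxides, glutathione transferases couple it to electrophiles, and glutathione reductase restores the oxidised form with NADPH. Contracting muscle makes peroxides continuously and relies on these enzymes, several of which are targets of the transcription factor NRF2.

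Values below are log2(intensity + 16) after quantile normalization over the 9 arrays. The arrays were not all on a common scale when deposited, and their scaling and spike signals split them into 3 technical batches: 4 arrays in batch A (the replicates 1 and vehicle replicate 3), 3 in batch B (the replicates 2) and 2 in batch C (dexamethasone plus testosterone replicate 3 and dexamethasone replicate 3). The split was made after the values were seen. The batch C arrays stood apart in the ratio of 3' to 5' signal, and the cause was not tested. Their ratio of 3' to 5' Gapdh signal was 6.22 with both hormones and 4.94 with dexamethasone, against 1.06 to 1.17 elsewhere, and neither is a vehicle array. Of 12 markers of skeletal muscle fibres, 11 were on the array and all 11 passed the filter on dim signals. Their summed signal was 303777 to 319560 with both hormones, 291602 to 296478 under dexamethasone and 312266 to 321130 under vehicle. The dexamethasone sums lay below all others. Fibroblast markers (10 of 10 on the array) summed to 12366 to 28180 with both hormones, 4415 to 15512 under dexamethasone and 25058 to 37215 under vehicle. Slow fibre markers (8 of 8 on the array) summed to 2866, 99927 and 48972 in dexamethasone plus testosterone replicates 1, 2 and 3, against 114278 to 138672 under dexamethasone and 97942 to 123750 under vehicle. In whole muscle, fewer cells of a type and less RNA per cell cannot be told apart.

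The promoters of 9 member genes are in the RefSeq table for GRCr8 (250 bases before and 50 after each annotated start, 11 starts in all); Gsr was not among them. They were searched on both strands for the core of the antioxidant response element that NRF2 binds, TGACNNNGC, for the glucocorticoid receptor half-site AGAACA, and for the full element, which is that half-site, any 3 bases and its reverse complement and so contains 2 half-site matches. The core was present in 2 of the 9 genes, Gclm and Gstp1 (2 of 11 promoters), and in 12.1% of all 33469 promoters in the table. The half-site was present in Gpx3 and Gstm1 (2 of 11 promoters), and in 20.7% of all promoters. The full element was in none of the 11 promoters and in 0.0149% of all. Shown here are the promoters of the 2 ligase subunits, which carry out the limiting step, of Gpx3, the member with the widest spread between groups, and of Gstp1. The last 2 were chosen after their values and matches were seen. Capitals mark the matches, and a match is a description of the letters in the window only. Some windows lie mostly or wholly between the annotated ends of their gene, among them those of Gclc, Gstm1 and Gstp1. A window is therefore not always sequence upstream of the gene.
Gclc (chr8:87510226-87510525, plus strand): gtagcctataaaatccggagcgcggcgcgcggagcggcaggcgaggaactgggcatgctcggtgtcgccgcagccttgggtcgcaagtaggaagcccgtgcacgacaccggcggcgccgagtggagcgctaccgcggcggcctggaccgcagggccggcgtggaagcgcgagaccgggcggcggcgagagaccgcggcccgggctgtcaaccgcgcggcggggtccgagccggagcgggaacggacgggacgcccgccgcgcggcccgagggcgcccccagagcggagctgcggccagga
Gclm (chr2:213031885-213032184, plus strand): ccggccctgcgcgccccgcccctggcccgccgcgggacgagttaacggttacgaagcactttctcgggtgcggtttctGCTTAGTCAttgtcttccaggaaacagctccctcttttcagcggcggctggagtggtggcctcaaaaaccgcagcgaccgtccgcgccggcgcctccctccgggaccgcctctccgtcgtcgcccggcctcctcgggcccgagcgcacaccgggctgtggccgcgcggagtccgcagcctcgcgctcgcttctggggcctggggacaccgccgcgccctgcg
Gpx3 (chr10:39529085-39529384, plus strand): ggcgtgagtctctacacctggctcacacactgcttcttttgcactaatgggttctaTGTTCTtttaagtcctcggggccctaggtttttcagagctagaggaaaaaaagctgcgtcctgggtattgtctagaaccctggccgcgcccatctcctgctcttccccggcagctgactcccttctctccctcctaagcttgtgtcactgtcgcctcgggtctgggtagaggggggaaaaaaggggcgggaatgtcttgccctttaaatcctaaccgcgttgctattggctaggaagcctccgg
Gstp1 (chr1:210769656-210769955, minus strand): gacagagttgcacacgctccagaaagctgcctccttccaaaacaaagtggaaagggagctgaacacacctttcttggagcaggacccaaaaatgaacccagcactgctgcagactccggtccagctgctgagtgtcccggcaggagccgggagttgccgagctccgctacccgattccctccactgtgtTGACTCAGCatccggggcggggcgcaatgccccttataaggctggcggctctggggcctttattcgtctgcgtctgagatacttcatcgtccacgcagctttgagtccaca

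Plasma glutathione peroxidase Gpx3 stood 2.97-fold higher under dexamethasone than under vehicle and 3.08-fold lower with both hormones than under dexamethasone. The Mu class transferases Gstm1 and Gstm4 stood 1.86-fold and 2.31-fold lower with both hormones than under dexamethasone. The changes of Gclc, Gclm, Gpx1 and the brighter Gpx4 probe set had 95% intervals that include 0 in every comparison. None of the members passed the threshold, an adjusted p under 0.05 over all probe sets tested by limma. Of the 12 member probe sets, 11 passed the filter on dim signals, and that of Gss did not. In dexamethasone minus vehicle 0 of these 11 were called, where 1.05% of 18625 probe sets were (0.569% higher and 0.483% lower), and 2 had an unadjusted p under 0.05, where 15.5% of all did. For dexamethasone plus testosterone minus dexamethasone 0 were called against 0.113% of all (0.0698% higher and 0.043% lower), and 4 had an unadjusted p under 0.05 against 11% of all. For dexamethasone plus testosterone minus vehicle 0 were called, as was none of the 18625 (0%), and 1 had an unadjusted p under 0.05 against 6.12% of all. The median log2 change over the 11 was -0.18, -0.14 and -0.23 in these comparisons, against 0.01, -0.00 and 0.02 over all probe sets. The first and the second comparison share the dexamethasone arrays, so a high or low array there moves both in opposite directions.

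Arrays of the groups compared did not overlap for 3 of the 11 member probe sets in dexamethasone minus vehicle (22.9% of all probe sets). Gpx3 and Gstm1 were higher under dexamethasone, as were 12.5% of all, and the dimmer Gpx4 probe set was lower, as were 10.4%. The groups did not overlap for 4 in dexamethasone plus testosterone minus dexamethasone (14.6% of all). Gpx3, Gstm1 and Gstm4 were lower with both hormones, as were 7.35% of all, and the dimmer Gpx4 probe set was higher, as were 7.24%. Against vehicle the arrays with both hormones did not overlap for 2 (13.3% of all), Gstm1 and Gstm4, both lower, as were 5.79% of all, while 7.53% of all were higher.

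**Figure D1:**
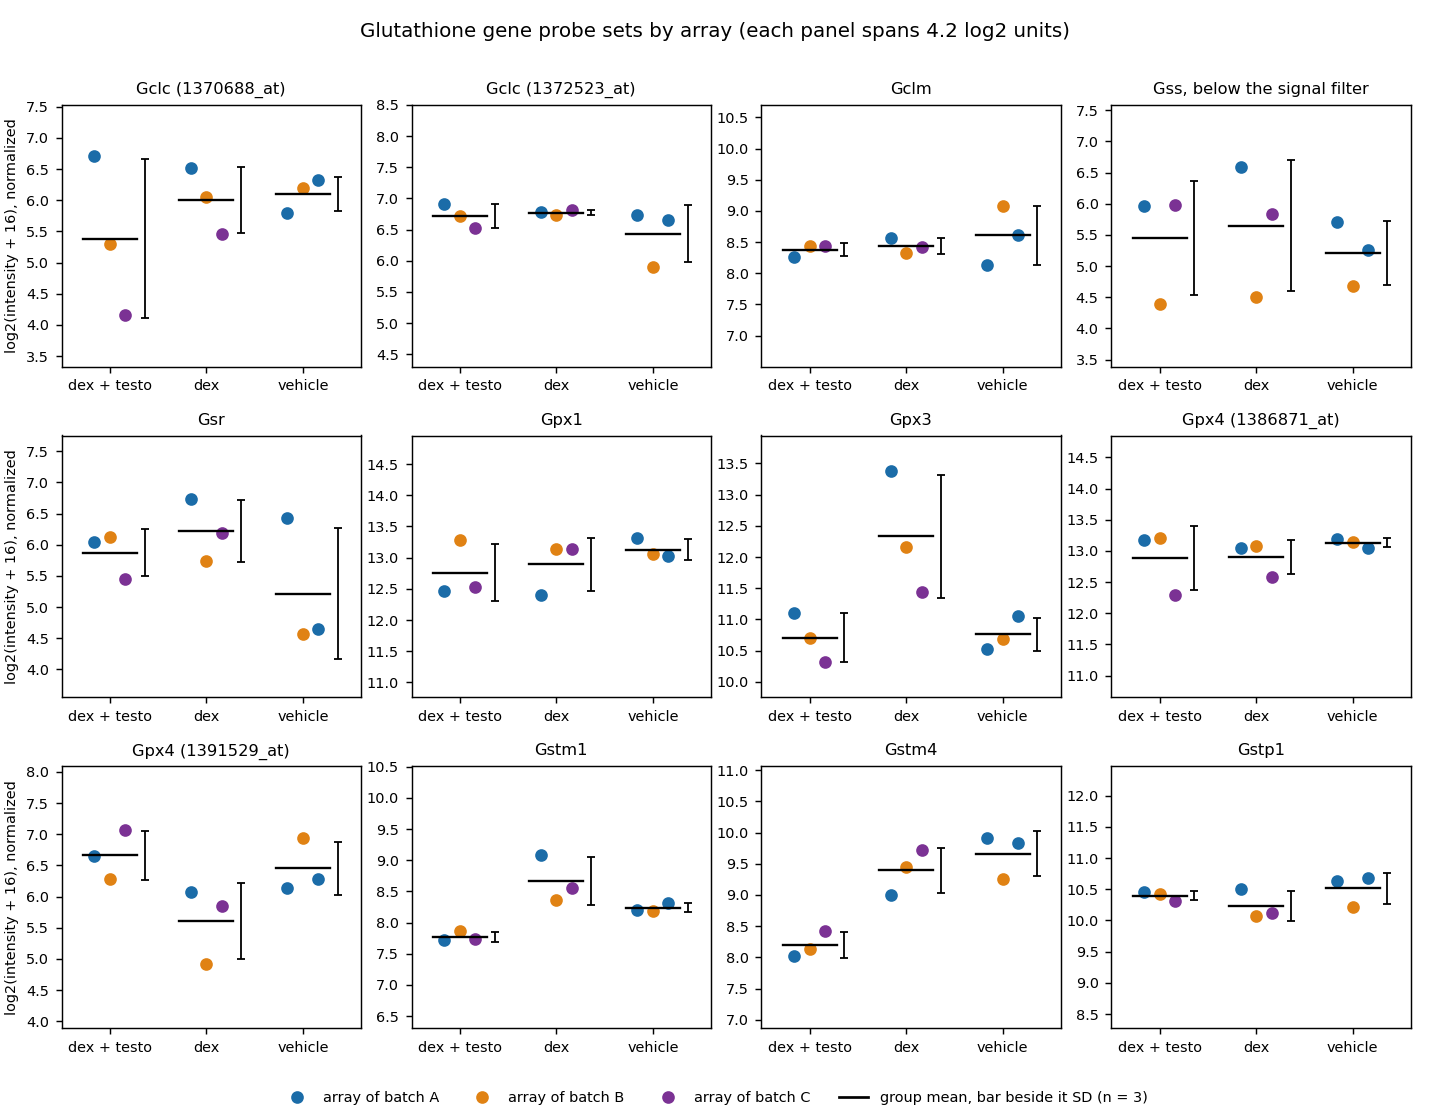
Normalized log2(intensity + 16) of the 12 member probe sets in each of the 9 arrays, with dexamethasone plus testosterone (dex + testo) at the left, dexamethasone (dex) in the middle and vehicle at the right of each panel. Points are arrays coloured by technical batch, horizontal lines group means and bars SD (n = 3). Gpx3 is highest in the 3 dexamethasone arrays, between 11.44 and 13.38, and Gstm4 lowest in the 3 arrays of both hormones, between 8.02 and 8.43.

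No probe set of the enzymes of synthesis separated the groups. Gclc, the catalytic subunit of the ligase, was measured by 2 probe sets, and the brighter (1372523_at) had 6.90, 6.72 and 6.52 under dexamethasone plus testosterone, 6.77, 6.73 and 6.81 under dexamethasone, and 6.74, 5.90 and 6.66 under vehicle. The groups overlapped, and vehicle replicate 2 was the lowest array. The log2 change was 0.34 ± 0.24 in dexamethasone minus vehicle (SE, n = 3 per group, limma adjusted p = 0.554) and -0.05 ± 0.24 in dexamethasone plus testosterone minus dexamethasone (adjusted p = 0.968). The dimmer probe set of Gclc (1370688_at) ran from 4.16 to 6.71 under dexamethasone plus testosterone, from 5.45 to 6.52 under dexamethasone and from 5.80 to 6.32 under vehicle. Its lowest array in each hormone group was that of batch C, and its log2 changes were -0.62 ± 0.56 in dexamethasone plus testosterone minus dexamethasone and -0.10 ± 0.56 in dexamethasone minus vehicle.

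Gclm, the modifier subunit that lowers the enzyme's need for glutamate and its inhibition by glutathione, had 8.26, 8.43 and 8.44 under dexamethasone plus testosterone, 8.57, 8.32 and 8.42 under dexamethasone, and 8.13, 9.07 and 8.62 under vehicle. Its vehicle arrays spanned the others. The change was -0.18 in dexamethasone minus vehicle, with a 95% interval of -0.72 to 0.37, and -0.05 in dexamethasone plus testosterone minus dexamethasone, with an interval of -0.60 to 0.49 (limma adjusted p = 0.779 and 0.968). Gss, glutathione synthetase, stayed below the filter with a mean of 5.43 against a filter level of 5.75, and was not tested. It had 5.97, 4.39 and 5.98 under dexamethasone plus testosterone, 6.59, 4.51 and 5.84 under dexamethasone, and 5.70, 4.68 and 5.25 under vehicle. The batch B array was the lowest in every group.

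Gsr, glutathione reductase, passed the filter narrowly with a mean of 5.77. It had 6.05, 6.13 and 5.44 under dexamethasone plus testosterone, 6.74, 5.74 and 6.19 under dexamethasone, and 6.42, 4.57 and 4.65 under vehicle. Vehicle replicates 2 and 3 lay below all others, and vehicle replicate 1 lay among the hormone groups. The log2 change in dexamethasone minus vehicle was 1.01 ± 0.49 (limma adjusted p = 0.37) and within batches 1.20 (A) and 1.17 (B), and that in dexamethasone plus testosterone minus dexamethasone was -0.35 ± 0.49 (adjusted p = 0.875). Leaving out single arrays moved the Gsr change in dexamethasone minus vehicle between 0.68, without vehicle replicate 2, and 1.61, without vehicle replicate 1, and it passed under neither.

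The peroxidases differed among themselves. Gpx3, the secreted selenoenzyme that circulates in plasma, had 11.10, 10.70 and 10.31 under dexamethasone plus testosterone, 13.38, 12.16 and 11.44 under dexamethasone, and 10.53, 10.69 and 11.05 under vehicle. Each dexamethasone array lay above every array of the other groups, and the groups with both hormones and with vehicle overlapped. Dexamethasone averaged 12.33 ± 0.98 and vehicle 10.76 ± 0.27 (SD, n = 3 each), a 2.97-fold higher level that did not pass (log2 change 1.57 ± 0.44 SE, limma adjusted p = 0.129). Among the 18625 probe sets tested, its change ranked 116 from the most positive. Within batch A the log2 change was 2.59, and within batch B it was 1.47.

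With technical batch as a block, the Gpx3 change in dexamethasone minus vehicle was 1.98 ± 0.31 and passed (limma adjusted p = 0.0443). It also passed without dexamethasone replicate 3, the lowest dexamethasone array (2.02 ± 0.39, adjusted p = 0.0454), and without both batch C arrays (2.02 ± 0.37, adjusted p = 0.0394). Vehicle has no batch C array, so both settings compare the same dexamethasone and vehicle arrays. Without dexamethasone replicate 1, the highest array, the Gpx3 change was 1.04 ± 0.32 (adjusted p = 0.276). Over the 18 alternatives its adjusted p ran from 0.0394 to 0.308, and it passed in 3.

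Under both hormones Gpx3 averaged 10.71 ± 0.39 (SD, n = 3), against 12.33 ± 0.98 under dexamethasone alone. Gpx3 was thus 3.08-fold lower, which did not pass (-1.62 ± 0.44 on the log2 scale, SE, limma adjusted p = 0.209). It was -2.29, -1.46 and -1.13 within batches A, B and C. Against vehicle the change was -0.05, with a 95% interval of -1.05 to 0.94, which does not show that the 2 groups were alike. Fat cells also make Gpx3. Adipocyte markers (7 of 8 on the array, Lep and Cidec under the filter) summed to 3361 to 7844 under both hormones, 9056 to 9881 under dexamethasone and 7103 to 8934 under vehicle, a sum made mostly of Lpl and Fabp4. Of the 5 tested, 1 was above 0 and 4 below 0 in dexamethasone plus testosterone minus dexamethasone (median -0.44), and 2 were above 0 and 3 below 0 in dexamethasone minus vehicle (median -0.0062). Adipoq, the 1 above 0 in the first of these, had a log2 change of 0.21 in dexamethasone plus testosterone minus dexamethasone and -0.0062 in dexamethasone minus vehicle. Cidec, a lipid droplet protein under the filter and so untested, stood at -1.17 and 1.90 in the same comparisons. Each dexamethasone sum lay above every sum of the other groups, while the 5 tested markers had changes of both signs in dexamethasone minus vehicle. The part of fat cells in the Gpx3 values was not tested.

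Gpx1, the cytosolic peroxidase, had 12.46, 13.29 and 12.53 under dexamethasone plus testosterone, 12.40, 13.14 and 13.14 under dexamethasone, and 13.32, 13.05 and 13.02 under vehicle. Dexamethasone plus testosterone replicates 1 and 3 and dexamethasone replicate 1 were lower than the other 6 arrays. The changes were -0.14 ± 0.29 in dexamethasone plus testosterone minus dexamethasone and -0.24 ± 0.29 in dexamethasone minus vehicle (limma adjusted p = 0.926 and 0.749). Red cells are rich in this enzyme. Erythroid markers (4 of 8 on the array, Slc4a1 and Epb42 under the filter) summed to 2765, 6112 and 3556 in dexamethasone plus testosterone replicates 1, 2 and 3, to 1195, 4631 and 3373 in dexamethasone replicates 1, 2 and 3, and to 5426 to 7788 under vehicle. The part of blood in the Gpx1 values was not tested.

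Gpx4, which reduces lipid peroxides within membranes, had a bright probe set (1386871_at) at 13.17, 13.20 and 12.30 under dexamethasone plus testosterone, 13.05, 13.07 and 12.58 under dexamethasone, and 13.20, 13.14 and 13.05 under vehicle. The 2 low arrays are those of batch C. The changes were -0.01 ± 0.27 in dexamethasone plus testosterone minus dexamethasone and -0.23 ± 0.27 in dexamethasone minus vehicle (limma adjusted p = 0.992 and 0.739). Within batches A and B dexamethasone minus vehicle gave -0.071 and -0.070. The dim probe set of Gpx4 (1391529_at) had 6.65, 6.28 and 7.06 under dexamethasone plus testosterone, 6.07, 4.91 and 5.85 under dexamethasone, and 6.14, 6.93 and 6.28 under vehicle. Its dexamethasone arrays lay below all others, with changes of 1.05 ± 0.35 in dexamethasone plus testosterone minus dexamethasone and -0.84 ± 0.35 in dexamethasone minus vehicle (adjusted p = 0.315 and 0.297). In dexamethasone minus vehicle it was -0.14 in batch A and -2.02 in batch B, and the bright probe set did not show the same pattern.

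**Figure D2:**
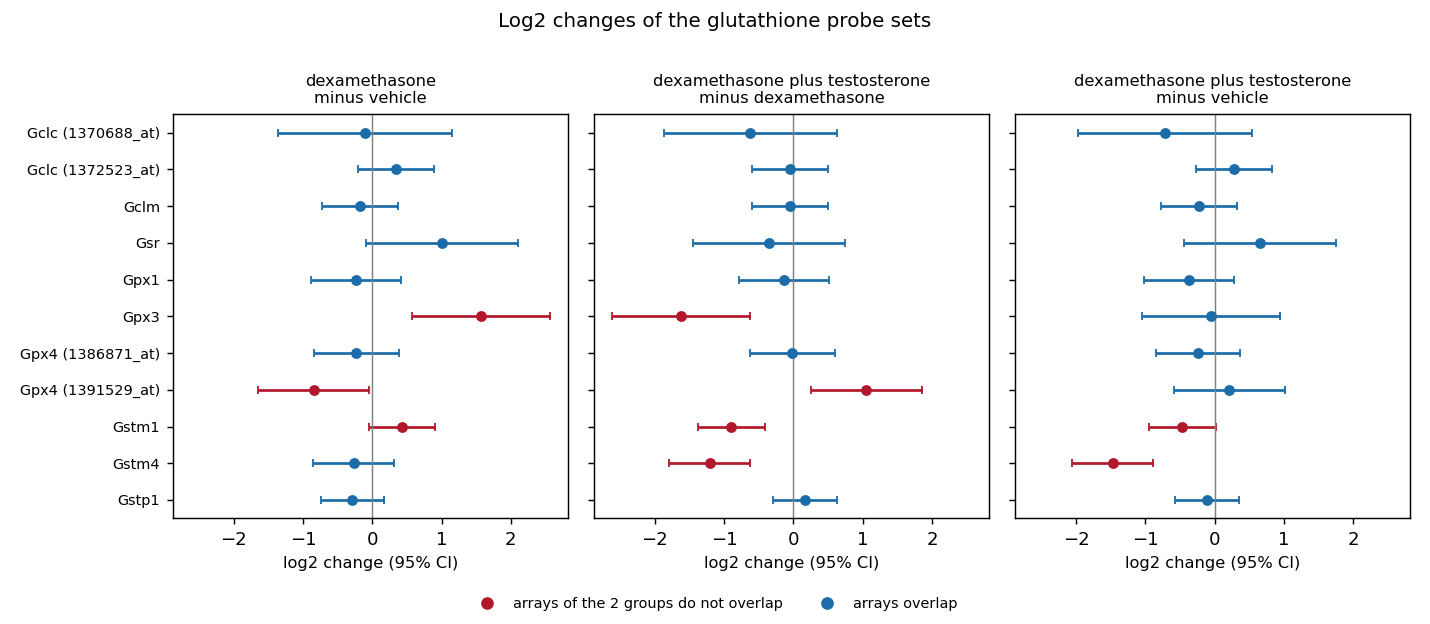
Log2 changes of the 11 member probe sets tested, with 95% confidence intervals from limma (n = 3 arrays per group), in the 3 comparisons. Red marks probe sets with no overlap of arrays between the groups compared. Gpx3 stands at 1.57 in dexamethasone minus vehicle and at -1.62 in dexamethasone plus testosterone minus dexamethasone, and Gstm4 is below 0 in all 3 panels, with intervals that exclude 0 in both comparisons that hold testosterone.

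The Mu class transferase Gstm4 was lowest under both hormones. It had 8.02, 8.13 and 8.43 under dexamethasone plus testosterone, 9.01, 9.46 and 9.73 under dexamethasone, and 9.91, 9.25 and 9.83 under vehicle. Each array with testosterone lay below every array of the other groups, which overlapped each other. The means were 8.19 ± 0.21 under both hormones, 9.40 ± 0.36 under dexamethasone and 9.66 ± 0.36 under vehicle (SD, n = 3 each). The log2 change against dexamethasone was -1.21 ± 0.26 (SE, limma adjusted p = 0.116), or 2.31-fold lower, and within batches it was -0.99 (A), -1.33 (B) and -1.30 (C). The log2 change against vehicle was -1.47 ± 0.26 (adjusted p = 0.467), or 2.77-fold lower, and within batches it was -1.84 (A) and -1.12 (B). Its unadjusted p was the 11th lowest of 18625 in that comparison, in which no probe set passed. In dexamethasone minus vehicle it was -0.26 ± 0.26 (adjusted p = 0.677). It passed in none of the 18 alternatives in any comparison, with a lowest adjusted p of 0.0503. Slow fibre markers were lower in the same comparisons, with 8 of 8 below 0 both against dexamethasone (median -2.40) and against vehicle (median -2.28). Their sums in dexamethasone plus testosterone replicates 1, 2 and 3 were 2866, 99927 and 48972, and their part in the Gstm4 values was not tested.

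Gstm1, the other Mu class member, had 7.72, 7.87 and 7.74 under dexamethasone plus testosterone, 9.09, 8.36 and 8.56 under dexamethasone, and 8.21, 8.19 and 8.32 under vehicle. No 2 groups overlapped. Under both hormones Gstm1 was 1.86-fold lower than under dexamethasone (-0.89 ± 0.21 on the log2 scale, SE, limma adjusted p = 0.15), and within batches the change was -1.37 (A), -0.49 (B) and -0.82 (C). Against vehicle the change was -0.47 ± 0.21 (adjusted p = 0.83). In dexamethasone minus vehicle it was 0.43 ± 0.21 (adjusted p = 0.384), and within batches 0.83 (A) and 0.17 (B).

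The further Mu class genes Gstm2, Gstm5 and Gstm7 were set beside the 2 members after their values had been seen. Gstm2 had 10.67, 10.51 and 9.99 under dexamethasone plus testosterone, 11.71, 11.40 and 11.01 under dexamethasone, and 9.74, 10.41 and 9.51 under vehicle. Its change in dexamethasone minus vehicle was 1.49 ± 0.30 (limma adjusted p = 0.0565), and it passed in 6 of 18 alternatives, among them technical batch as a block (1.65, adjusted p = 0.0459) and without dexamethasone replicate 3 (1.67, adjusted p = 0.0474). Gstm5 stood at 1.08 ± 0.28 in that comparison (adjusted p = 0.102, past the threshold in 3 of 18 alternatives) and Gstm7 at 0.77 ± 0.29 (adjusted p = 0.25). They stood in dexamethasone plus testosterone minus dexamethasone at -0.99, -1.10 and -0.79 (adjusted p = 0.263, 0.169 and 0.368), and none of them overlapped between those groups. These 3 and the 2 members were lower in every array with both hormones than in every dexamethasone array, which holds for 7.35% of all probe sets, and nothing is read from that count since the 3 were picked by their values. Gstm3, also of the Mu class, lay under the filter and was not tested. It had 5.48, 4.45 and 5.65 under dexamethasone plus testosterone, 5.73, 6.15 and 4.81 under dexamethasone, and 4.33, 4.48 and 5.26 under vehicle, and the groups with and without testosterone overlapped. In dexamethasone minus vehicle Gstm4 had a negative change and Gstm1, Gstm2, Gstm5 and Gstm7 positive ones. Mu class genes are close copies of one another, and how far each probe set picks up its relatives cannot be read from these files.

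**Figure D3:**
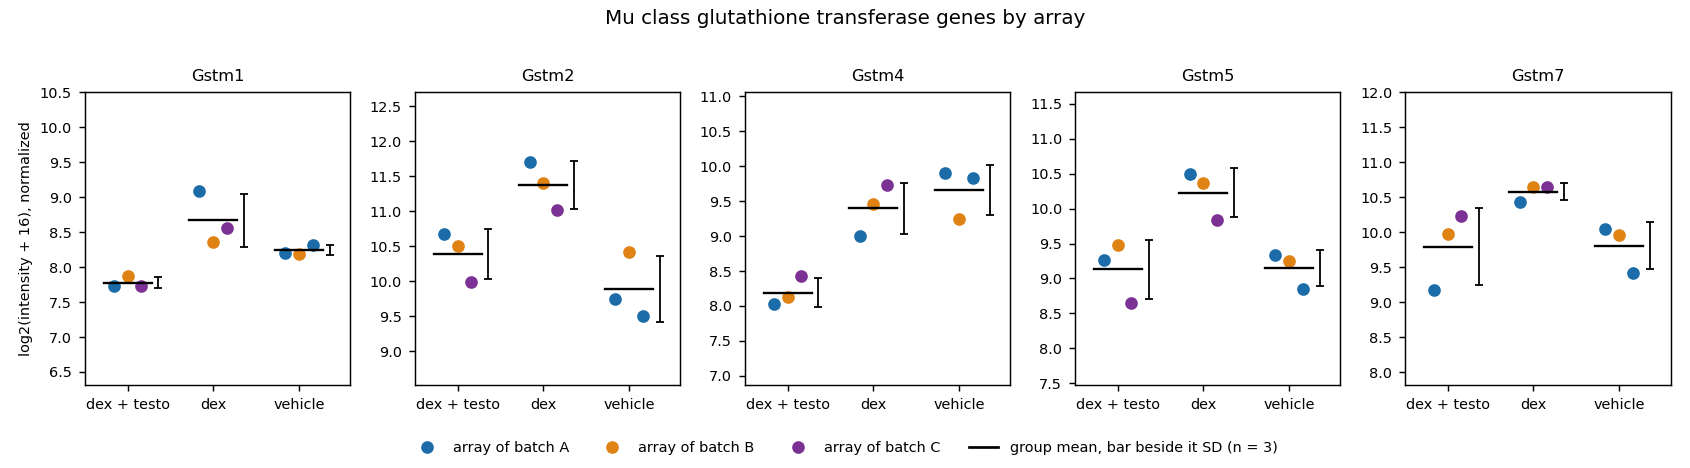
Normalized log2(intensity + 16) of 5 Mu class glutathione transferase genes in each array, with dexamethasone plus testosterone (dex + testo) at the left, dexamethasone (dex) in the middle and vehicle at the right. Points are arrays coloured by batch, lines group means and bars SD (n = 3). Gstm3, under the filter, is not drawn. In all 5 panels the arrays with both hormones lie below those with dexamethasone. Only for Gstm4 do the dexamethasone and vehicle arrays overlap (9.01 to 9.91). Those of Gstm1 are only narrowly apart, with 8.36 in dexamethasone replicate 2 and 8.32 in vehicle replicate 3.

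Gstp1, the Pi class transferase, had 10.46, 10.43 and 10.31 under dexamethasone plus testosterone, 10.50, 10.07 and 10.12 under dexamethasone, and 10.64, 10.22 and 10.68 under vehicle. All groups overlapped. The changes were 0.17 ± 0.20 in dexamethasone plus testosterone minus dexamethasone and -0.29 ± 0.20 in dexamethasone minus vehicle, where the 95% interval ran from -0.75 to 0.17 (limma adjusted p = 0.842 and 0.551).

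Related genes were counted in 7 lists. Among genes of glutathione turnover and transport (15 tested), 1 rose in dexamethasone minus vehicle, 0 fell and 14 did not pass (1.05% of all probe sets called, list median -0.22). The riser was Chac1, which breaks down glutathione. It had 9.58, 10.83 and 11.52 under dexamethasone plus testosterone, 12.58, 11.83 and 12.03 under dexamethasone, and 9.04, 8.67 and 8.23 under vehicle, and no 2 groups overlapped. Its log2 change was 3.49 ± 0.46 in dexamethasone minus vehicle (limma adjusted p = 0.0206). The call was lost without vehicle replicate 1, 2 or 3 (adjusted p = 0.0613, 0.0965 and 0.114) or dexamethasone replicate 1 or 2 (0.0804 and 0.0616). With testosterone added, dexamethasone plus testosterone minus dexamethasone was -1.50 ± 0.46 (adjusted p = 0.263), and none of the 15 passed (0.113% of all probe sets called).

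Among enzymes that supply NADPH (12 tested), 1 fell in dexamethasone minus vehicle and 11 did not pass (median -0.09). Over all probe sets 0.483% were called lower there. The 1 that fell was cytosolic malic enzyme Me1, with 12.13, 12.06 and 12.32 under dexamethasone plus testosterone, 10.87, 10.71 and 11.45 under dexamethasone, and 12.30, 12.14 and 12.63 under vehicle. Dexamethasone arrays lay below all others. Me1 fell by 1.35 ± 0.24 on the log2 scale (limma adjusted p = 0.0384), and its second probe set had -1.27 (adjusted p = 0.0526). The call held in 6 of 18 alternatives. Leaving out vehicle replicate 1, 2 or 3 or dexamethasone replicate 1 or 2 lost it (adjusted p up to 0.168). So did leaving out dexamethasone plus testosterone replicate 1 or 2 (adjusted p = 0.055 and 0.0716). It was also lost with scaling to a common trimmed mean, pseudocount 1 and no filter (0.0675, 0.0598 and 0.0782). The same held for a replicate block and only the 2 groups compared (0.0578 and 0.0748). Me1 in dexamethasone plus testosterone minus dexamethasone stood at 1.16 ± 0.24 (adjusted p = 0.104), and its second probe set at 0.73 ± 0.25 (adjusted p = 0.319).

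In the other 5 lists 0 genes passed in dexamethasone minus vehicle, and in all 7 lists 0 passed in both other comparisons. Over all probe sets 1.05% were called in dexamethasone minus vehicle. The shares were 0.113% in dexamethasone plus testosterone minus dexamethasone and 0% in dexamethasone plus testosterone minus vehicle. Other glutathione peroxidases and transferases (18 tested) had a median of 0.39 in dexamethasone minus vehicle, with 14 above 0, and of -0.35 in dexamethasone plus testosterone minus dexamethasone, with 14 below 0. Their 2 brightest genes, microsomal transferase Mgst3 and the omega class Gsto1, had changes of -0.16 and 0.63 in dexamethasone minus vehicle (limma adjusted p = 0.913 and 0.169). The peroxidases Gpx7 and Gpx8, named after their values were seen, stood at -0.90 ± 0.26 and -0.70 ± 0.30 there (adjusted p = 0.136 and 0.299). The corresponding medians were 0.22 and -0.35 for superoxide and peroxide removal and NRF2 signalling (17 tested), in which Sod1 stood at -0.19 and Sqstm1 at -0.02 in dexamethasone minus vehicle. The regulators Keap1 and Nfe2l2 of that list were singled out after their values were seen. Keap1, the adaptor that targets NRF2 for breakdown, had 1.08 ± 0.21 in dexamethasone minus vehicle (adjusted p = 0.0523) and -0.80 ± 0.21 in dexamethasone plus testosterone minus dexamethasone (adjusted p = 0.197), and its dim second probe set had -0.40 and -0.16. Nfe2l2, which encodes NRF2, had 0.54 ± 0.19 and -0.57 ± 0.19 (adjusted p = 0.219 and 0.315).

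Glutaredoxins, thioredoxins and peroxiredoxins (19 tested) had a median of -0.09 in dexamethasone minus vehicle, and of 0.06 in dexamethasone plus testosterone minus dexamethasone, and their brightest genes Txn1 and Prdx3 stood at -0.09 and 0.03 in the first. Glrx of that list, named after its values were seen, had -1.35 ± 0.41 and 1.20 ± 0.41 in the 2 comparisons (limma adjusted p = 0.156 and 0.321). Selenoproteins and the genes of selenocysteine insertion (18 tested), which the selenoenzymes Gpx1, Gpx3 and Gpx4 depend on, had a median of 0.02 in each of these comparisons. Their brightest genes were Selenow, at 0.03 in dexamethasone minus vehicle, and Selenok, at -0.68 ± 0.19 (limma adjusted p = 0.127). Glyoxalases and formaldehyde removal (6 tested) had medians of 0.02 in dexamethasone minus vehicle and 0.14 in dexamethasone plus testosterone minus dexamethasone, with Glo1 at -0.52 ± 0.19 (adjusted p = 0.222) and Esd at -0.07.

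**Figure D4:**
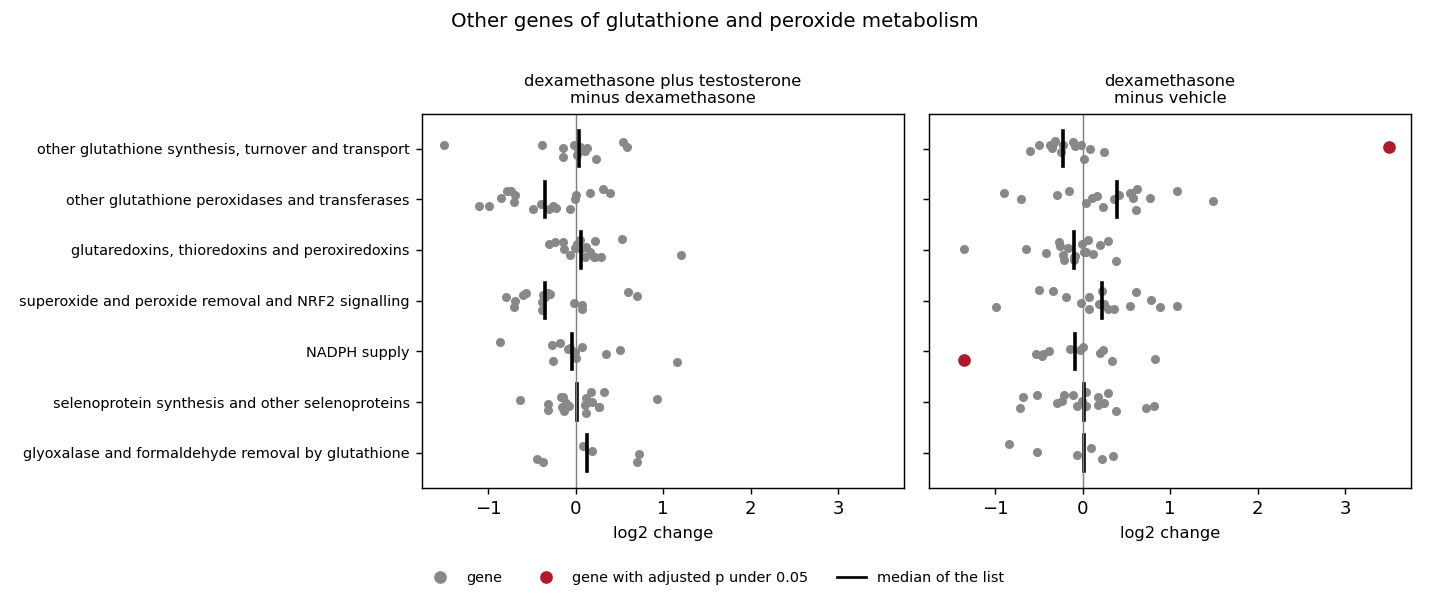
Log2 changes of the tested genes of the 7 related lists in dexamethasone plus testosterone minus dexamethasone (left) and dexamethasone minus vehicle (right). Grey points are genes, red points those with adjusted p under 0.05, and black bars list medians; the dexamethasone arrays enter both panels. The red points are Chac1 at 3.49 and Me1 at -1.35.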

How the data were processed

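Total RNA of gastrocnemius was hybridised to Affymetrix rat expression arrays, per the labels' protocols. The deposited values are linear intensities, 1 per probe set and array; the signal algorithm is not given in the sources used here. Of 31099 probe sets 57 were controls and were left out. Array medians on the log2 scale spanned 1.82, so log2(intensity + 16) was quantile normalized (limma 3.58.1, R 4.3.3), which understates changes of dim probe sets. A filter kept the 18625 probe sets whose mean reached the 40th percentile, which were fitted with limma (lmFit, eBayes) on all 9 arrays with a mean per group, with Benjamini-Hochberg adjustment in each comparison at 0.05. The number of arrays limits the precision. The fit was also run on simulated arrays with independent noise. These held no batches and only changes larger than those of the members. That run therefore does not show how the fit handles batches or changes of the members' size.

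Symbols came from the platform annotation, updated by gene ID to GRCr8; 20826 probe sets had 1 symbol, 436 several and 9780 none. A gene stands for its probe set with the highest mean. Named are all members, genes of the related lists past the threshold and, where none passed, the 2 with the highest mean. Other genes were added after their values were seen. Marker sums are of 2 to the normalized value, less 16. Members and lists were chosen with earlier results of these data known. Batch A holds the 4 arrays whose trimmed mean signal was not 500; poly-A spike signals split the others. Alternatives were another scaling, pseudocount and filter, blocks for replicate number and batch, another variance model, fewer groups and leaving out arrays.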

Additional observations from a re-analysis of the deposited data

How the results depend on the processing

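Over 18 alternatives no member probe set above the filter was called in either comparison that holds testosterone, and 1 (Gpx3) was called in dexamethasone minus vehicle with technical batch as a block (1) or without the batch C arrays (1); leaving out single arrays gave 0 to 1. All probe sets called in dexamethasone minus vehicle (196) numbered 54 with pseudocount 1, 48 with no filter, 469 with a filter at the 60th percentile, 444 without the batch C arrays, 510 with an intensity trend and robust variance, 123 with only the 2 groups compared, and 1 to 333 without single arrays (fewest without vehicle replicate 2 or 3, most without dexamethasone replicate 3). In dexamethasone plus testosterone minus dexamethasone the 21 became 5, 0, 83, 0, 149 and 0 under the same settings, and 0 to 68 without single arrays. In dexamethasone plus testosterone minus vehicle limma called 0 in every alternative. The labels do not say that replicate numbers mark a shared animal or day, and some same-numbered pairs correlated near 0 or below it, so the numbers were not taken to pair the samples: correlations of same-numbered arrays' deviations were 0.03, 0.30 and 0.11 in dexamethasone minus vehicle, 0.06, 0.37 and 0.59 in dexamethasone plus testosterone minus dexamethasone, and -0.20, 0.14 and 0.06 in dexamethasone plus testosterone minus vehicle. Between dexamethasone plus testosterone and dexamethasone the numbers 1, 2 and 3 coincide with technical batches A, B and C. With a replicate block 13, 0 and 0 probe sets and 0 members were called in the 3 comparisons, and neither Chac1 nor Me1 passed (adjusted p = 0.0578 for both). Signs changed as follows, and the cause was not tested. With technical batch as a block, dexamethasone minus vehicle was 0.43 for Gclc (1370688_at), 0.12 for Mgst3, -0.051 for Prdx3, -0.088 for Selenow and 0.29 for Sqstm1, and without the batch C arrays 0.18 for Gclc (1370688_at), -0.036 for Prdx3, -0.057 for Selenow and 0.21 for Sqstm1. With scaling to a common trimmed mean it was 0.018 for Esd, -0.014 for Selenow and 0.011 for Sqstm1. In dexamethasone plus testosterone minus dexamethasone the values without the batch C arrays were 0.061 for Gclc (1372523_at), 0.11 for Gpx1 and 0.12 for Gpx4 (1386871_at), which was 0.048 with the other scaling. In dexamethasone plus testosterone minus vehicle Gpx3 was 0.011, 0.36 and 0.14 with the other scaling, the batch block and without the batch C arrays, and Gpx4 (1386871_at) 0.055 without them. Leaving out single arrays also changed signs, with -0.15 to 0.013 for Esd, -0.36 to 0.18 for Gclc (1370688_at), -0.41 to 0.057 for Gclm, -0.36 to 0.0099 for Gpx1, -0.51 to 0.070 for Mgst3, -0.075 to 0.21 for Prdx3, -0.065 to 0.15 for Selenow, -0.26 to 0.21 for Sqstm1 and -0.25 to 0.047 for Txn1 in dexamethasone minus vehicle. The ranges were -0.15 to 0.041 for Gclc (1372523_at), -0.11 to 0.013 for Gclm, -0.40 to 0.013 for Gpx1, -0.17 to 0.28 for Gpx4 (1386871_at), -0.057 to 0.30 for Sod1 and -0.60 to 0.072 for Sqstm1 in dexamethasone plus testosterone minus dexamethasone. The ranges were -0.47 to 0.0026 for Gclm, -0.25 to 0.14 for Gpx3 and -0.40 to 0.055 for Gpx4 (1386871_at) in dexamethasone plus testosterone minus vehicle.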
